A study of Homo sapiens and Mus musculus with 19 samples.

Results

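The genes described here encode the subunits of the transcription factor AP-1 and the early growth response factors EGR1 and EGR3. They were the 10 human genes FOS, FOSB, FOSL1, FOSL2, JUN, JUNB, JUND, ATF3, EGR1 and EGR3 and their 10 mouse counterparts, chosen by symbol, out of 19775 human and 18194 mouse genes named by a probe set that names 1 gene only. They had 24 human and 15 mouse probe sets, and the brightest probe set stood for each gene. All 10 human and all 10 mouse members passed the filter on dim signals.

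Expression was measured on 15 human arrays, 1 per vector for each of 5 lung cancer lines, and on 4 arrays of LLC, mouse Lewis lung carcinoma, whose titles read LLC-kB OVA. The labels give PC9, HCC827 and H23 as lung adenocarcinoma, H358 as bronchioalveolar carcinoma and A549 as lung carcinoma. The vector called IKKb carried the kinase IKKβ with the serines of its activation loop replaced by glutamate, which makes it active and frees NF-kB from its inhibitor. With IkB_SR the cells made IkBα, that inhibitor, as a super-repressor: alanine stands at the serines whose phosphorylation leads to its breakdown. MiG was the parent retrovirus with green fluorescent protein only, and it served as the control. The human lines carried IKKb, IkB_SR or MiG (n = 5 lines each), and LLC carried IKKb or MiG (n = 2 arrays each). All cells were transduced and sorted on the fluorescent protein, and all grew in medium with fetal bovine serum. The labels do not give the time between sorting and lysis, nor whether the LLC replicates were separate cultures, so p-values in LLC measure only the spread between these samples.

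AP-1 is a dimer. JUN, JUNB and JUND can pair with each other or with a protein of the FOS family, while FOS, FOSB, FOSL1 and FOSL2 need a JUN partner to bind DNA. FOS and EGR1 are classic immediate-early genes, switched on and off quickly after growth factors or stress reach the serum response factor and CREB at their promoters. FOSL1 and FOSL2 follow later, lack the strong transactivation domain of FOS, and FOSL1 in particular accumulates under sustained ERK signalling and in many carcinomas. ATF3 is a stress-induced relative that pairs with JUN proteins, and EGR1 and EGR3 are zinc finger factors.

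The promoter windows of FOS and EGR1 are shown because these are the classic immediate-early genes among the members. The known serum response element of FOS lies upstream of its window. The windows run from 250 bases before to 50 bases after the gene start in RefSeq on GRCh38.p14, at chr14:75278578-75278877 on the plus strand for FOS and chr5:138465229-138465528 on the plus strand for EGR1, and capitals mark motif matches.

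FOS: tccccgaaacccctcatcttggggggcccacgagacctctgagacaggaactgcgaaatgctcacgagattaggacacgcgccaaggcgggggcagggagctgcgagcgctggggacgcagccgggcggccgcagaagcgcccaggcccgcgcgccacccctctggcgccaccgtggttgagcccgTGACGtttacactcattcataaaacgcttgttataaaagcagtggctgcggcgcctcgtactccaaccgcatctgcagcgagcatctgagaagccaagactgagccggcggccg

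EGR1: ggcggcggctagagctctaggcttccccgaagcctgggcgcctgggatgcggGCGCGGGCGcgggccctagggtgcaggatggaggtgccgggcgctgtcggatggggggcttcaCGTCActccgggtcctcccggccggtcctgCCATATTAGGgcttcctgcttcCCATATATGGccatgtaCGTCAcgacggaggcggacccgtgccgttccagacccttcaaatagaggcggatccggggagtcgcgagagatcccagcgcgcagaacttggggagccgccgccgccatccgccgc

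RefSeq windows were matched for 8 of the 10 members, ATF3 with a pair of windows. FOSL1 and EGR3 had no window and were not searched. Both strands were searched for the TRE (TGACTCA), the CRE (TGACGTCA), its half-site (TGACG, which lies within the CRE), the CArG box of the serum response factor, the EGR site (GCGNGGGCG) and the kB consensus. The FOS window held a CRE half-site that began at base -64, counted from the gene start. The EGR1 window held CArG boxes that began at -105 and -83, an EGR site at -198 and CRE half-sites at -135 and -66. A TRE lay in the FOSL2 window and a CRE in the JUND window. Half-sites also lay in the windows of JUN, FOSL2, JUNB, JUND and FOSB. The kB consensus matched in none of the windows searched, which leave out FOSL1 and EGR3. Over all 35116 windows, 4.95% held a TRE, 1.85% a CRE, 24.6% a half-site, 1.29% a CArG box, 9.43% an EGR site and 11.3% the kB consensus. These matches are letters in a window and no measure of binding.

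Values are MAS5 signals, and each array had a trimmed mean of 500. The 40th percentile of an array, used here as the level below which a signal counts as dim, lay between 28.7 and 44.98 on the human and between 30.1 and 39.6 on the mouse arrays. The brightest probe set of NFKBIA, the gene of IkBα, gave 0.782 to 7.08 times the MiG signal with IkB_SR, above 1 in 4 of 5 human lines. NFKBIA is also a known NF-kB target, and with IKKb it gave 1.07 to 3.91 times the MiG signal in the human lines, above 1 in 5 of 5, and 2.09 to 2.19 times in LLC, by same-numbered arrays. The brightest IKBKB probe set did not follow the vector, at 0.794 to 1.03 of MiG with IKKb over the 5 human lines, and in LLC Ikbkb lay at 1.14 to 1.26 of MiG. The files do not say whether these probe sets detect the vectors' transcripts. All 8 epithelial markers were above the 40th percentile on at least 1 array of each vector, and the sums over 6 measured leukocyte markers were 214 to 887 with IKKb, 166 to 468 with IkB_SR and 227 to 664 with MiG, against 45077 to 121477, 41917 to 132213 and 51197 to 133845 for the epithelial markers. PTPRC was below the 40th percentile on all arrays with IkB_SR or MiG, and LYZ on all arrays with IKKb or MiG. The H358 IKKb array stood apart in a spike-in control (Dap, 4376 against 1103 with IkB_SR and 1128 with MiG) and in the actin ratio of 3' over 5' probe sets (1.74, with 1.38 for IkB_SR and 1.41 for MiG).

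Levels of the members differed between the lines. For each of the 10 genes the ratio between the line with the highest and the line with the lowest geometric mean was above the largest ratio between vectors within any line. The margin was small for FOSB (4.06 against 3.91) and FOSL2 (1.86 against 1.77). The share of all genes with such an order was not counted, so it is not read as a trait of the members. These levels are a description, since each line has 1 array per vector. EGR1 was highest in H23, at 12605 with IKKb, 12171 with IkB_SR and 16009 with MiG, and lowest in A549, at 1502, 1011 and 1415. The geometric means of these lines differed 10.5-fold, with HCC827, H358 and PC9 in between and their ranges touching. FOSL1 fell into a bright set, H358, PC9 and HCC827, with geometric means of 3393, 2988 and 1787, and a dimmer pair, A549 and H23, at 539.6 and 464. The range of PC9 overlapped those of H358 and HCC827, which did not overlap each other, the ranges of A549 and H23 overlapped, and no value of the pair reached the bright set. FOS ran the other way at its top, with H23 at 1652 to 2892 above all other arrays (239 to 1375). JUN was highest in PC9 (8303 to 9537) and lowest in H23 (1976 to 2956), with H23 below all arrays of the other lines. The H358 IKKb signal of 8510.3 lay within the range of PC9. JUND was highest in H23 (9118 to 10591, other lines 4426 to 6165). JUNB was lowest in A549, whose 3 arrays lay between 708 and 1330.25, and ATF3 was lowest there too, between 158 and 191. FOSL2 had the narrowest spread, 1.86-fold between PC9 and H23, with every neighbouring pair of lines overlapping. FOSB and EGR3 were dim: 8 of 15 FOSB signals and 5 of 15 EGR3 signals lay below the 40th percentile, and EGR3 reached 91.6 to 110.5 in PC9 alone.

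**Figure D1:**
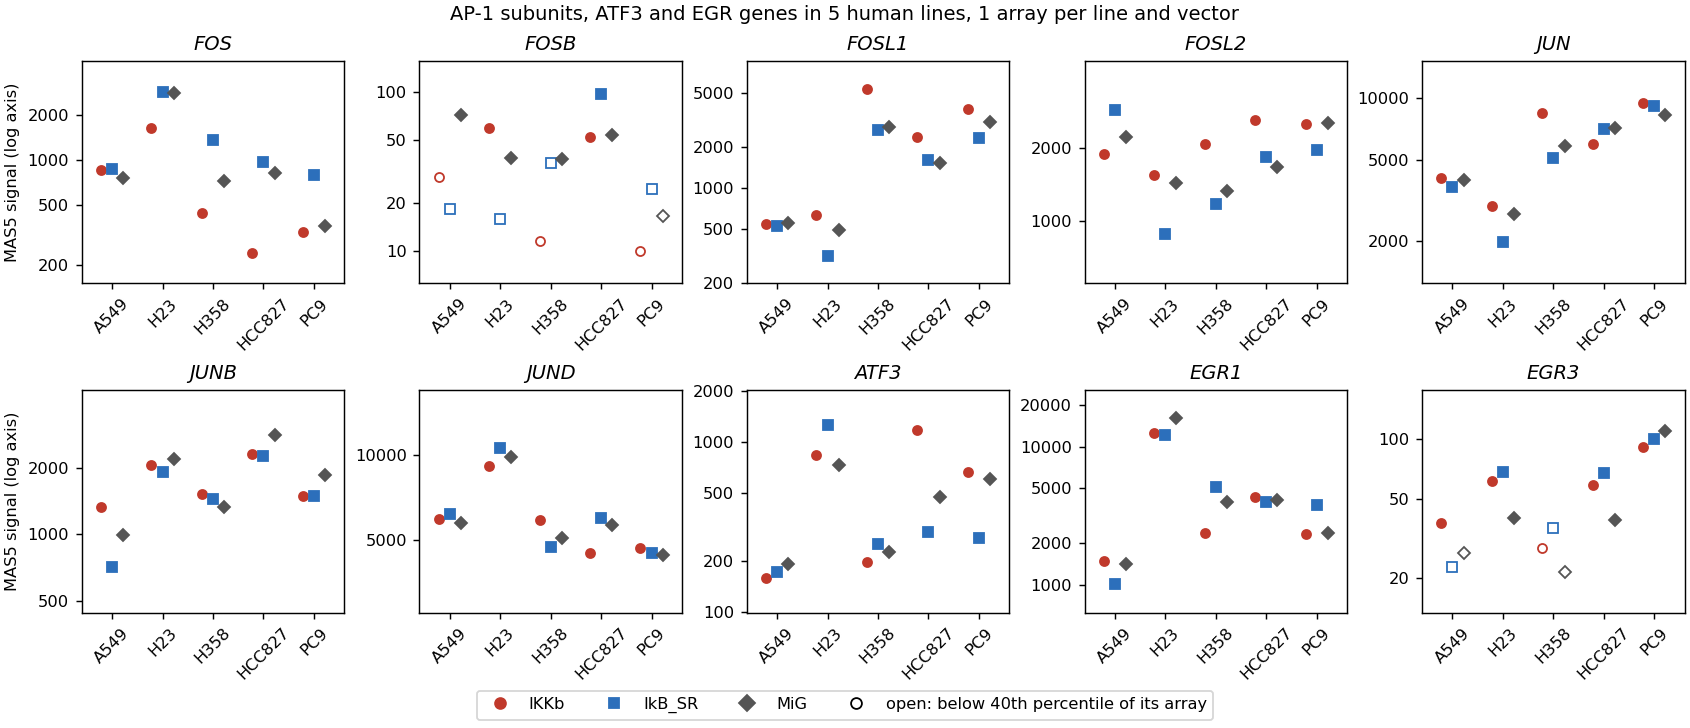
MAS5 signals of the 10 genes (vertical log axis, each panel on its own scale) in 5 human lines (horizontal), with 1 point per array for IKKb (circle), IkB_SR (square) and MiG (diamond), and open points for signals below the 40th percentile of their array. FOS is lowest with IKKb in 4 of 5 lines and FOSL1 is highest with IKKb in 4 of 5, while A549 shows little difference for either gene.

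The direct comparison of active against blocked NF-kB, IKKb against IkB_SR, asks what the state of the pathway does to these genes in the human lines. FOS was lower and FOSL1 higher with IKKb than with IkB_SR, and the other 8 members did not pass the threshold, an adjusted p of 0.05 in limma. That is 2 of 10 members, where 0.933% of 15212 genes passed (0.611% higher and 0.322% lower). The share of members is no test, since they were chosen with earlier results of these data known. The median log2 fold change of the 10 members was 0.09, against -0.01 over all genes. In such bulk samples, fewer expressing cells and less RNA per cell cannot be told apart.

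FOS had signals of 867, 1652, 444, 239 and 333 with IKKb in A549, H23, H358, HCC827 and PC9, against 873, 2892, 1375, 974 and 801 with IkB_SR in the same lines. With MiG they were 762, 2817, 723, 819 and 361. The IKKb signal was below the IkB_SR signal in all 5 lines, by little in A549. The groups as a whole overlapped, with H23 bright under every vector. Across the lines FOS was 2.17-fold lower with IKKb than with IkB_SR (log2 -1.12 ± 0.24, SE, adjusted p = 0.0402 in limma with the line as a block). By line, the log2 difference was -1.96 in HCC827, -1.60 in H358, -1.23 in PC9, -0.80 in H23 and -0.01 in A549. In 4 of 5 lines the MiG signal lay between the other vectors. Of all genes, 5.73% were lower in all 5 lines in this comparison.

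FOSL1 ran opposite. Its signals were 539, 637, 5321, 2347 and 3786 with IKKb in A549, H23, H358, HCC827 and PC9, against 530.1, 319, 2643, 1593 and 2328 with IkB_SR. With MiG they were 549.7, 491, 2778, 1527 and 3027. The IKKb signal was higher in all 5 lines, again by little in A549, and the groups as a whole overlapped. FOSL1 was 1.57-fold higher with IKKb than with IkB_SR (log2 0.65 ± 0.13, adjusted p = 0.0369 in limma). Its log2 differences were 1.01 in H358, 0.96 in H23, 0.70 in PC9, 0.55 in HCC827 and 0.02 in A549. In 3 of 5 lines the MiG signal of FOSL1 lay between the other vectors, while it was highest in A549 and lowest in HCC827. Of all genes, 4.51% were higher in all 5 lines.

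Both calls lie close to the threshold. Without A549 they were stronger, FOS at log2 -1.39 (adjusted p = 0.0175) and FOSL1 at 0.81 (0.0137). They were lost without H23 (adjusted p = 0.104 for FOS and 0.146 for FOSL1), without H358 (0.143 and 0.0950), without HCC827 (0.152 and 0.136), without PC9 (0.156 and 0.176), and without the H358 IKKb array alone (0.0832 and 0.0754), where FOS stood at log2 -1.05 and FOSL1 at 0.54. Over all alternatives the adjusted p ran from 0.0175 to 1.0 for FOS and from 0.0137 to 1.0 for FOSL1, and the direction was kept in each. FOS and FOSL1 had 1 probe set each. Of the 14 further probe sets of the other members, 12 had the sign of the brightest one between IKKb and IkB_SR. That number was 12 for IKKb against MiG and only 7 for IkB_SR against MiG. The 3' to 5' actin ratio was 1.07, 1.25, 1.74, 1.26 and 1.30 with IKKb in A549, H23, H358, HCC827 and PC9, against 1.03, 1.32, 1.38, 1.19 and 1.25 with IkB_SR, and its part in these results was not tested.

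**Figure D2:**
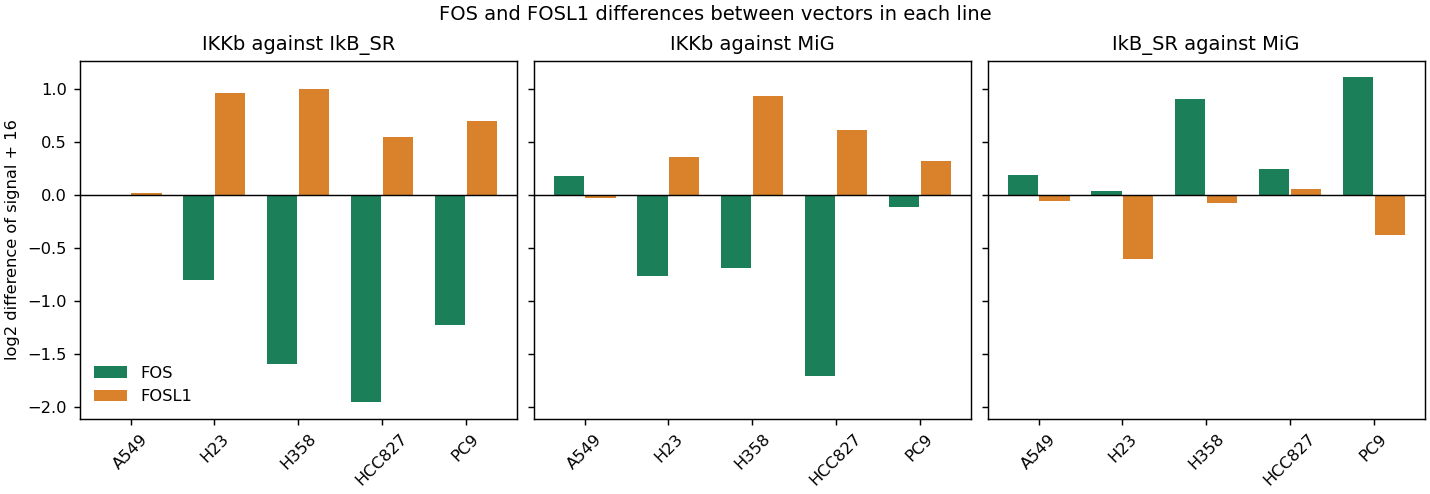
Log2 difference of signal plus 16 between vectors (vertical) in each human line (horizontal) for FOS (left bar of each pair) and FOSL1 (right bar), from 1 array per vector and line, in 3 comparisons. With IKKb against IkB_SR the FOS bars run from -0.01 to -1.96 and the FOSL1 bars from 0.02 to 1.01, on opposite sides of 0 in all 5 lines, with the A549 bars too short to see or nearly so.

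Among the other FOS family members, FOSL2 lay at log2 0.38 ± 0.17 between IKKb and IkB_SR (adjusted p = 0.341 in limma, 95% interval 0.01 to 0.74). Its signals were 1890.3, 1545, 2084, 2626 and 2509 with IKKb in A549, H23, H358, HCC827 and PC9, against 2869, 878, 1177, 1838 and 1961 with IkB_SR. It was higher with IKKb in 4 of 5 lines and lower in A549, at 0.659 of the IkB_SR signal. FOSB lay at log2 -0.13 ± 0.33, with signals of 10.0 to 59.7 with IKKb and 16.04 to 98.3 with IkB_SR, 3 and 4 of the 5 signals below the 40th percentile.

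JUN, the main partner of the FOS proteins, lay at log2 0.26 ± 0.12 (adjusted p = 0.352, 95% interval 0.00 to 0.51). Its signals were 4069.5, 2956, 8510.3, 6004 and 9537 with IKKb in A549, H23, H358, HCC827 and PC9, against 3667, 1976, 5073, 7105 and 9192 with IkB_SR. The lines differed, from 1.68-fold in H358 and 1.496-fold in H23 to 0.845 in HCC827. JUNB, a JUN relative with weaker activation, was above its IkB_SR signal in all 5 lines (log2 0.22 ± 0.12, adjusted p = 0.442), but only A549 stood clear, at 1330.25 with IKKb against 708 with IkB_SR, while the other 4 lines lay between 1.01-fold and 1.07-fold. JUND, which is expressed steadily in most cells, lay at -0.06 ± 0.09 (95% interval -0.25 to 0.13), the narrowest interval of the 10 members.

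ATF3 differed by line. Its signals were 158, 833, 197, 1170.3 and 663 with IKKb in A549, H23, H358, HCC827 and PC9, against 173, 1258, 251.1, 296 and 273 with IkB_SR. The IKKb signal was 3.96 times the IkB_SR signal in HCC827 and 2.43 times in PC9, and lay at 0.918, 0.662 and 0.786 of IkB_SR in A549, H23 and H358. Across the lines this gave log2 0.43 ± 0.30 (adjusted p = 0.554). These values are from the brightest ATF3 probe set. The further ATF3 probe sets lay at log2 -0.18 ± 0.23 and 0.18 ± 0.21. Their signals over the human arrays ran only from 53.0 to 158 and from 86.0 to 211. Single arrays allow no test between lines. EGR1 had signals of 1502, 12605, 2363, 4320.2 and 2323 with IKKb in A549, H23, H358, HCC827 and PC9, against 1011, 12171, 5106, 3964 and 3781 with IkB_SR, with 3 lines above and 2 below (log2 -0.21 ± 0.18, adjusted p = 0.653). The lines below were H358, at 0.463 of the IkB_SR signal, and PC9, at 0.614. The further EGR1 probe sets lay at log2 -0.33 ± 0.19 and -0.34 ± 0.28, each with 2 lines above and 3 below. EGR3 lay at log2 -0.03 ± 0.20, with signals of 28.3 to 91.6 with IKKb and 22.8 to 100.8 with IkB_SR.

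**Figure D3:**
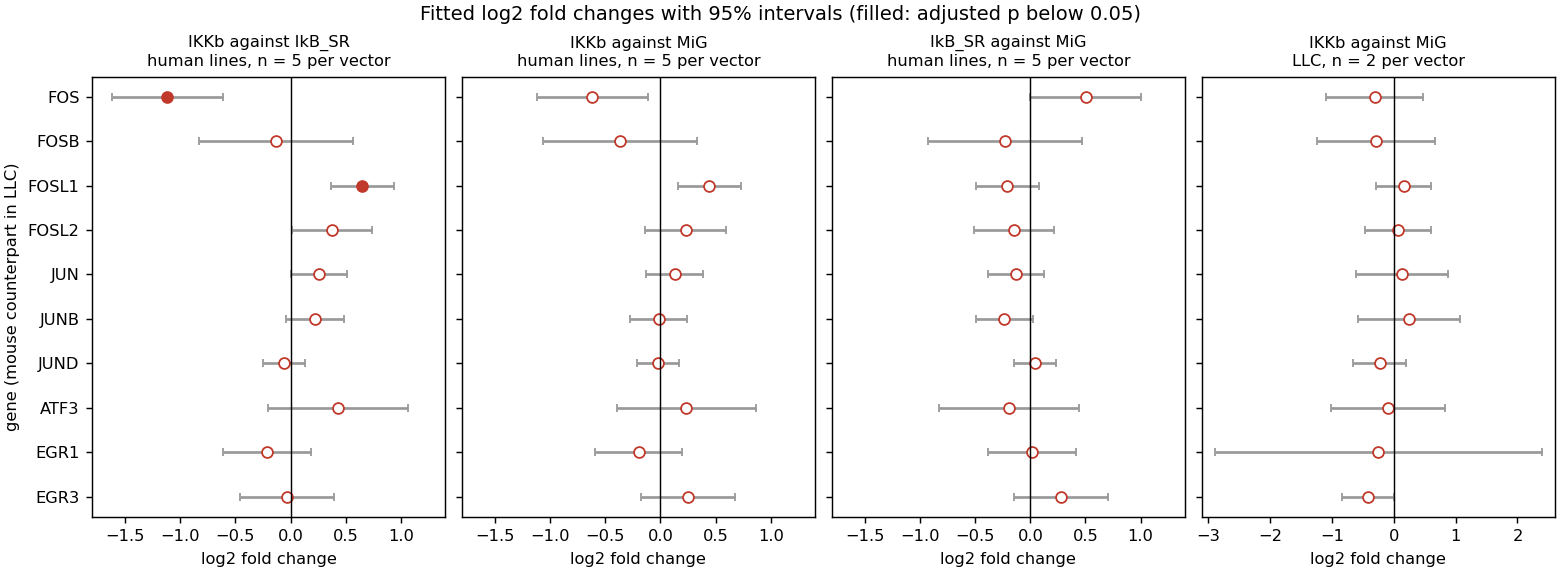
Fitted log2 fold changes (horizontal) with 95% intervals for the 10 genes (vertical) in 3 comparisons of the human lines (5 arrays per vector) and in LLC (2 arrays per vector), with filled points for an adjusted p below 0.05. Filled points are FOS at -1.12 and FOSL1 at 0.65 with IKKb against IkB_SR, and the interval of Egr1 in LLC runs from -2.88 to 2.39.

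Set against the empty vector, which asks what added or removed NF-kB activity does, no member passed in either comparison. The comparisons share their MiG arrays and are therefore given side by side. With IKKb against MiG, FOS lay at log2 -0.62 ± 0.24 and FOSL1 at 0.44 ± 0.13 (adjusted p = 0.878 each in limma), FOS below MiG in 4 of 5 lines and FOSL1 above it in 4 of 5. With IkB_SR against MiG, FOS lay at 0.50 ± 0.24 and FOSL1 at -0.21 ± 0.13 (adjusted p = 0.995 each), FOS above MiG in 5 of 5 lines and FOSL1 below it in 4 of 5. FOS was 1.11 above MiG on the log2 scale with IkB_SR in PC9 and 0.91 above it in H358, against 0.04 to 0.25 in the other lines, while its largest distance below MiG with IKKb was -1.71 in HCC827. FOSL1 stood highest over MiG with IKKb in H358, at 0.93. The remaining 8 members lay between -0.37 (FOSB) and 0.25 (EGR3) with IKKb, and between -0.24 (JUNB) and 0.28 (EGR3) with IkB_SR. ATF3 was 1.27 above MiG with IKKb in HCC827, and between -0.25 and 0.19 in the other lines.

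In these comparisons limma called 0 of 15212 genes (0%), while 839 genes with IKKb and 675 with IkB_SR had an unadjusted p below 0.05 (5.52% and 4.44%), among them FOS and FOSL1 with IKKb and 0 of 10 members with IkB_SR. FOS was the 1 member on the same side of MiG in all 5 lines, with IkB_SR, where 4.04% of all genes were higher and 3.71% lower in all 5 lines. With IKKb 0 members were, against 3.29% of genes higher and 4.83% lower. FOS and FOSL1 lay on opposite sides of MiG in 5 of 5 lines with IKKb and in 4 of 5 with IkB_SR. In A549 the sides were turned, with FOS at 0.18 and FOSL1 at -0.03 with IKKb.

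After the mean of each line was taken off, log2 signals of FOS and FOSL1 over the 15 arrays had a Pearson correlation of -0.82. This is a description, since the 3 arrays of a line sum to 0 after this step and the arrays share the vectors. Of all genes, 1.05% had a correlation with FOS as low or lower. This share is no test, since the pair was chosen with earlier results of these data known. The other member pairs largest in size were FOSL1 and FOSL2 (0.88), FOS and FOSL2 (-0.74), FOSL1 and JUN (0.68), and FOS and ATF3 (-0.65). After them came FOSB and EGR1 (0.57), FOSL2 and EGR1 (-0.56), FOSL1 and EGR1 (-0.55), and FOS and EGR1 (0.54). The arrays with IKKb in H23, H358, HCC827 and PC9 held the lowest FOS and the highest FOSL1 values, and the 3 arrays of A549 lay near the middle.

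**Figure D4:**
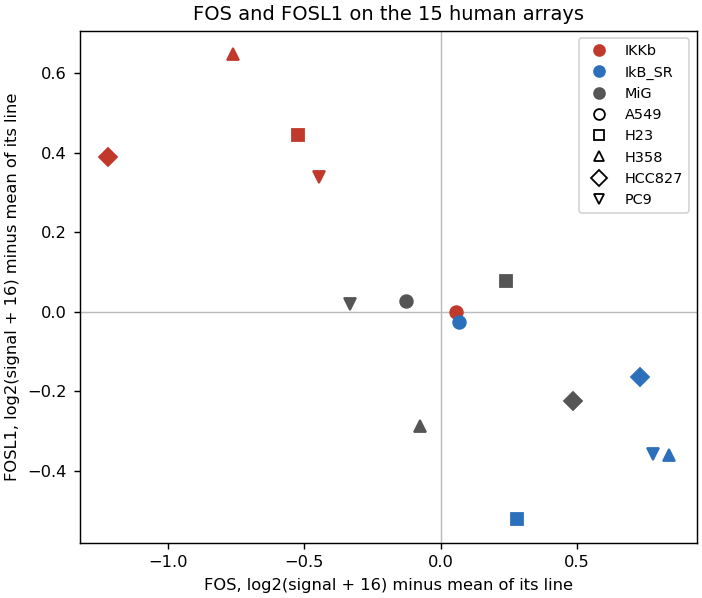
FOS (horizontal) and FOSL1 (vertical) on the 15 human arrays, as log2(signal + 16) minus the mean of the line, coloured by vector and shaped by line. IKKb arrays other than A549 lie at the upper left (FOS -1.22 to -0.45, FOSL1 0.34 to 0.65) and IkB_SR arrays other than A549 at the lower right (FOS 0.28 to 0.84, FOSL1 -0.52 to -0.16).

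Genes around AP-1 were followed in 5 further lists. Between IKKb and IkB_SR, KLF10, a zinc finger factor induced early by TGF-beta, rose 1.41-fold (log2 0.49 ± 0.11, adjusted p = 0.0451, higher in 5 of 5 lines). Its signals were 4119 to 8924 with IKKb and 3186 to 6687 with IkB_SR. It was 1 of 22 other early growth response and immediate-early genes tested, with a list median of 0.16. None of 14 other AP-1 and bZIP partners passed in limma (median 0.07), none of 20 ERK-dependent feedback and output genes such as the DUSP and SPRY families (0.02), none of 16 MAP kinases and regulators (0.06) and none of 16 known AP-1 targets (0.29). An unadjusted p below 0.05 was found for 8 of 22, 3 of 14, 5 of 20, 4 of 16 and 8 of 16 genes of these lists, where 14.2% of all genes had one. In the same order, 16 of 22, 9 of 14, 10 of 20, 11 of 16 and 13 of 16 lay above 0, where 46.9% of all genes did. Against MiG, 0 genes of the 5 lists passed, and the AP-1 targets had a median of 0.13 with IKKb and -0.09 with IkB_SR. Among the markers of other cells, 1 of 4 tested leukocyte genes passed between IKKb and IkB_SR: ITGAM, an integrin chain of myeloid cells, rose 3.30-fold (log2 1.72 ± 0.34, adjusted p = 0.0327 in limma). Its signals were 42.5 to 654 with IKKb and 11.95 to 171 with IkB_SR, with 3 of the 5 IkB_SR signals below the 40th percentile. None of 8 epithelial and 6 fibroblast and endothelial markers passed, with medians of -0.03 and -0.32, and PDGFRB and VWF were below the 40th percentile on all arrays. The part of these markers in the members' values was not tested.

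In LLC, IKKb was compared with MiG. None of the 10 mouse members passed in limma (adjusted p = 1.0 for each), nor did any of 12549 genes (0%). An unadjusted p below 0.05 was found for 238 genes (1.9%) and for 0 members. Fosl1 had signals of 5544 and 5564 with IKKb, against 4678 and 5282 with MiG (log2 0.16 ± 0.19). Fos had 72.6 and 86.6 with IKKb, against 86.3 and 119 with MiG (log2 -0.30 ± 0.33). The Fosl1 groups did not overlap and the Fos groups did, and both intervals take in 0 (-0.28 to 0.60 for Fosl1 and -1.09 to 0.48 for Fos). Egr3 had 832 and 784 with IKKb, against 1079 and 1092 with MiG (log2 -0.42 ± 0.18), and Jund had 4245 and 4311 with IKKb, against 4919 and 5099 with MiG (log2 -0.23 ± 0.18). Without overlap between the groups, 1 member was higher and 2 were lower by the brightest probe sets, where 10.9% of all genes were higher and 11.2% lower in that way. All 5 further mouse probe sets had the sign of the brightest one. A further Egr3 probe set, with signals of 67.6 to 183, lay at log2 -0.56 ± 0.45. By same-numbered arrays it was higher with IKKb in 1 case and lower in 1.

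The remaining mouse members overlapped between the vectors. Egr1 split by array number, at 939 and 85.4 with IKKb in the arrays numbered 1 and 2, against 798 and 151 with MiG. Its log2 fold change was -0.25 ± 1.10, with a range of -1.86 without the IKKb array numbered 1 to 1.37 without the IKKb array numbered 2. Without the MiG array numbered 2 it lay at -1.39, a fit that leaves 1 MiG array and so no spread for that vector. The Dap spike-in split the same way, at 1567 and 19.4 with IKKb against 1679 and 28.7 with MiG. Its part in the Egr1 signals was not tested. Junb had 616 and 297 with IKKb, against 364 and 351.2 with MiG, and Atf3 had 284 and 129.9 with IKKb, against 233 and 183 with MiG. Jun had 4378 and 2512 with IKKb, against 3586 and 2543 with MiG (log2 0.13 ± 0.31), and Fosl2 lay at log2 0.07 ± 0.22, and Fosb, near the 40th percentile, at -0.29 ± 0.40. Cdh1 and Esrp1 were below that percentile on all 4 arrays. Krt7, Krt19 and Cldn4 were also below it on both IKKb arrays. The 8 epithelial markers summed to 9471 and 9899 with IKKb, against 12155 and 14569 with MiG. Sums over 9 fibroblast and endothelial markers were 10262 and 11518 with IKKb, against 10890 and 20392 with MiG. The part of these markers in the members' values was not tested. In the 5 lists around AP-1, 0 mouse genes passed in limma, with medians of 0.00 for 14 bZIP partners, 0.06 for 19 immediate-early genes, -0.06 for 18 ERK output genes, 0.09 for 17 MAP kinases and -0.08 for 13 AP-1 targets, and 4 of the 13 AP-1 targets had an unadjusted p below 0.05.

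**Figure D5:**
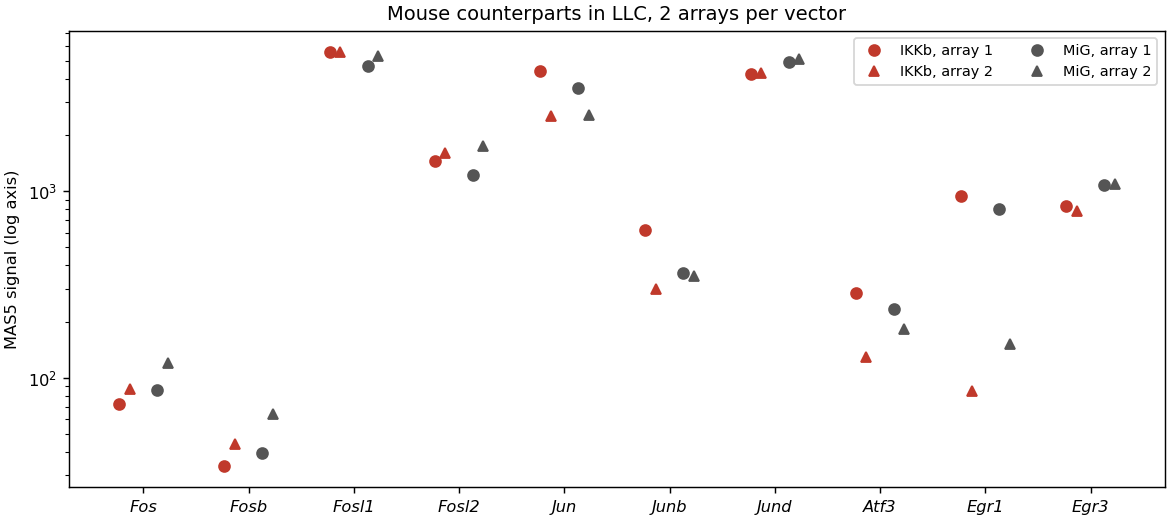
MAS5 signals (vertical log axis) of the 10 mouse genes (horizontal) in LLC with IKKb (left of each pair) and MiG (right), with circles for arrays numbered 1 and triangles for arrays numbered 2. The Fosl1, Jund and Egr3 signals do not overlap between the vectors, and Egr1 lies at 939 with IKKb and 798 with MiG on the arrays numbered 1, and at 85.4 with IKKb and 151 with MiG on those numbered 2.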

How the data were processed

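Per the submitters' processing notes, the authors made the deposited intensity values with GCOS 1.4 and MAS5, as 1 linear signal per probe set. There were 54675 human and 45101 mouse probe sets, and the trimmed mean of 500 was checked on the files. Scanner images and detection calls were not used here, and precision is limited by how many arrays there are. Probe sets that name 1 gene were kept, and the probe set with the highest mean log2 signal stood for the gene. Tests used log2 of the signal plus 16, on the 15212 human and 12549 mouse genes that exceeded their array's 40th percentile on 5 or more human or 2 or more mouse arrays. Fold changes on this scale understate the change of dim genes.

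Limma 3.58.1 in R 4.3.3 (lmFit, eBayes with an intensity trend, two-sided) was fitted on all genes, with the cell line as a block over the 15 human arrays and without a block over the 4 LLC arrays, with p-values adjusted by Benjamini-Hochberg over every gene tested in a comparison. The lines pair the human arrays by design, and arrays of the same line deviated together from their vector's mean (r from 0.797 to 0.916). Alternatives covered pseudocounts, normalisation, filters, probe sets, the prior, blocks and left-out arrays. All members are named, with list genes that passed (up to 3 per list and direction), the vector genes, and the 3 genes most like and most opposite to FOS and FOSL1. The members, lists and alternatives were chosen with earlier results of these data known. Figures were drawn with matplotlib 3.10.9.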

Additional observations from a re-analysis of the deposited data

Results flagged for a closer look

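Dixon's test was run on 60 sets of 5 values, the signals of each gene under each vector and its log2 differences by line, and 12 had 1 value far from the other 4. Chance gives about 1 in 20 for independent sets of normal values. The signals here were on the linear scale and the sets shared arrays, so this rate is no yardstick for the count.

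Most lay in H23. FOS there had 2892 with IkB_SR (other lines 801 to 1375) and 2817 with MiG (361 to 819). JUND had 10591 with IkB_SR (4498 to 6165) and 9809 with MiG (4426 to 5754). EGR1 had 12605 with IKKb (1502 to 4320.2) and 16009 with MiG (1415 to 4141). ATF3 had 1258 with IkB_SR (173 to 296).

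In HCC827, FOSB had 98.3 with IkB_SR (other lines 16.04 to 35.9), and ATF3 had a log2 difference of 1.27 between IKKb and MiG (other lines -0.25 to 0.19). EGR3 had 110.5 with MiG in PC9 (21.4 to 39.9). Between IKKb and IkB_SR in A549, the log2 difference was 0.89 for JUNB (other lines 0.01 to 0.10) and 0.47 for EGR3 (other lines -0.23 to -0.12).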

How the results depend on the processing

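Of 632 values of the 40 log2 fold changes under the alternatives, 575 kept direction and side of the threshold, 23 fell short of it, 2 passed it and 32 turned sign, over 15 fold changes; the causes were not tested. Between IKKb and IkB_SR, 2 members passed. The count was 1 (FOSL1) with a pseudocount of 1, quantile normalisation or a robust prior, where FOS lay at -1.15 (adjusted p = 0.0521), -1.08 (0.0537) and -1.12 (0.0637) in limma. It was 0 without the filter, with mean probe sets, without the trend, without the replicate block and with the compared vectors only, all with FOS at -1.12 and FOSL1 at 0.65. Their adjusted p values under these were 0.0568 and 0.0515, 0.0695 and 0.0533, 0.137 and 0.123, 1.0 and 1.0, and 0.236 and 0.238. With 1 line or the H358 IKKb array left out, the count was 0 to 2, FOS -1.39 to -0.91 and FOSL1 0.54 to 0.81. Over all genes, 142 calls became 0 without the replicate block, 15 with the compared vectors only, 21 without the trend, 45 with mean probe sets, 86 without the filter and 24 to 129 with a line left out.

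Small differences turned sign. EGR3 between IKKb and IkB_SR lay at 0.014 with quantile normalisation and 0.0099 with median centring, JUNB between IKKb and MiG at 0.014 and 0.045, JUND between IKKb and MiG at 0.041 with median centring, and ATF3 between IkB_SR and MiG at 0.078 with mean probe sets. With arrays left out, IKKb against IkB_SR ran over -0.41 to 0.0095 for EGR1, -0.16 to 0.017 for EGR3, -0.48 to 0.060 for FOSB and -0.16 to 0.026 for JUND. IKKb against MiG ran over -0.024 to 0.38 for ATF3, -0.12 to 0.058 for JUNB and -0.094 to 0.058 for JUND, and IkB_SR against MiG over -0.43 to 0.033 for ATF3, -0.14 to 0.14 for EGR1 and -0.47 to 0.048 for FOSB.

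In LLC, fits with 1 array left out are given by effect size only, since the lone array of a vector shows no spread. Ranges over these fits were -0.61 to 0.43 for Atf3, -1.86 to 1.37 for Egr1, -0.18 to 0.32 for Fosl2, -0.26 to 0.53 for Jun and -0.25 to 0.76 for Junb. With the array number as a replicate block, 1 member passed (Egr3, -0.42 ± 0.11, adjusted p = 0.0403 in limma), and 223 genes against 0. Same-numbered arrays deviated together (r = 0.53 over 12549 genes), but nothing in the labels says that the numbers pair cultures.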

Other observations

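The genes closest to FOS and FOSL1 over the 15 human arrays, by Pearson's r after the mean of each line was taken off, are given as a description. FOS was most like PTOV1 (0.963), CACNG4 (0.939) and PDK3 (0.932), and most opposite to IL1R2, a decoy receptor for interleukin-1 (-0.960), PTX3, a secreted pentraxin of innate immunity (-0.959), and ZMIZ2 (-0.958). FOSL1 was most like EHD1 (0.959), CYLD, a deubiquitinase known as an inhibitor of NF-kB signalling (0.954), and NAV3 (0.944), and most opposite to NEBL (-0.988), IER5L (-0.948) and NHSL3 (-0.927).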
